A study of Rattus norvegicus with 6 samples.

Results

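The cytosolic ribosomal protein genes encode the proteins of the ribosome that makes protein from nuclear mRNA. They were chosen by name alone: every gene whose RefSeq symbol is Rpl or Rps followed by a digit, together with Rpsa, Rplp0, Rplp1 and Rplp2, without the Rps6k kinases, pseudogenes and symbols beginning with LOC. The rule took 82 of 13104 genes and unmatched transcripts, 49 with an Rpl symbol and 33 with an Rps symbol, from 83 transcript rows, since Rps27a has 2. The RNA was from colon, its inner epithelial layer, of 6 Wistar rats, all adult males from which the pineal gland had been removed. The vehicle group (animals 1, 2 and 3) received 2.5% ethanol in PBS and the melatonin group (animals 4, 5 and 6) 1 mg/kg melatonin, both by intraperitoneal injection as subjective night began, and tissue was taken 4 h later. The comparison asks whether a single dose of the hormone, given without the pineal gland's own rhythm, altered these mRNAs within hours. All levels are FPKM, fragments scaled to transcript length and library size, so that genes can be compared with each other.

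A ribosome has a large subunit, which forms peptide bonds, and a small subunit, which reads the mRNA. Each ribosomal protein is present once in nearly every ribosome, apart from the stalk proteins, so the cell needs near equal molar amounts. In mammals most of these mRNAs begin with a C followed by an unbroken run of C and T (U in the RNA). Through this terminal oligopyrimidine or TOP tract, the growth kinase complex mTORC1 and the binding protein Larp1 control the translation of these mRNAs. The epithelium of the colon renews itself within days and is a strong producer of ribosomes, above all in the crypt base.

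The start of the gene is shown first because the TOP tract is shared by many of these genes and was not used to choose them. Of the 82 genes, 66 had an entry in the RefSeq promoter table (build GRCr8, 250 bases before to 50 after the annotated start). Each sequence runs from 20 bases before to 10 after the start, and capitals mark the unbroken run of C and T that begins at the annotated start.
Rplp1, GRCr8 chr8:71290863-71290892, minus strand: tgcgcgcaggcgcatgtgatCCTTTCCTCa
Rps27, GRCr8 chr2:177964597-177964626, minus strand: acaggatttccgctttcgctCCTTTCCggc
Rps26, GRCr8 chr7:1643395-1643424, minus strand: gtcgggagagccgccgggtcCTCTTTCgag
Rpl31, GRCr8 chr9:49143091-49143120, plus strand: ccatcccacaatccctcgcgCCTTTCCTTT
Rps15, GRCr8 chr7:10068106-10068135, minus strand: gcagccgctgacaccgcttcCTTTTCCCag
Rpl10, GRCr8 chrX:157205830-157205859, plus strand: atgcgcaggcgtgggagcgtCTCTTTTCCT
Rpl37a, GRCr8 chr9:81748071-81748100, plus strand: accgcgcatgcccgttgcgtCTCTTCCTCT
These 7 show the tract in genes of both subunits and the stalk, 6 at high levels and Rpl37a, described below, at a low one. The next 3 have no such run at their annotated start, and they are the gene with the highest level and 2 paralogues with low levels.
Rpl41, GRCr8 chr7:1563488-1563517, minus strand: gaaggggcggctcggaagtgacgacaccaa
Rpl22l1, GRCr8 chr2:113683176-113683205, plus strand: tgagcgctccgtggatatccggttccgagt
Rps27l, GRCr8 chr8:76443638-76443667, plus strand: ttatagtttattcatttgtcattatttgtg

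A C at the annotated start that opened a run of at least 5 C or T was found in 23 of the 66 genes (34.8%), against 215 of 7880 tested genes with an entry (2.73%). The run itself had a median length of 4 bases in the ribosomal protein genes and 0 bases over all tested genes. Annotated starts can be off by some bases, and such a tract beginning within 10 bases of the start was found in 71.2% of the ribosomal protein genes and 27.8% of all. The letters CTTTCC, searched on the sense strand from 10 bases before to 16 after the start and able to overlap the tract, were present in 21.2% and 1.19%. TATAA, searched on the sense strand from 45 to 15 bases before the start, was present in 10.6% and 2.55%. Searched on both strands of the whole 300 bases, CCGGAAG, the core of ETS family sites, was present in 30.3% and 19.9%, AAGATGGC, the core of YY1 sites, in 7.58% and 5.91%, and the E-box CACGTG in 7.58% and 9.85%. Paralogues aside, the 23 genes with the tract at the start had a median level of 615 FPKM (22.97 to 1334), and the 37 without it 462 FPKM (111 to 1603), so the 2 ranges overlap almost entirely. Their median log2 changes after melatonin were -0.03 and -0.02. These matches describe the letters in these windows.

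Ribosomal protein mRNAs were among the most abundant in the epithelium. Of the 82 genes, 76 reached 100 FPKM on average, and 51 of the 200 features with the highest mean were ribosomal protein genes. A feature is a gene or a transcript not matched to one, and the median tested feature had a mean of 16.3 FPKM. Without the 7 genes whose symbol marks a paralogue, the other 75 ranged from 22.97 to 1603 FPKM, with a median of 500.2 and the middle of the distribution between 370 and 704. Together the 82 genes held 8.07%, 8.12% and 8.58% of the summed FPKM in vehicle animals 1, 2 and 3, and 8.21%, 8.15% and 8.04% in melatonin animals 4, 5 and 6. The group means were 8.26% ± 0.279 and 8.14% ± 0.0910 (SD, n = 3). The groups overlapped, and vehicle animal 3 stood above the other five.

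**Figure D1:**
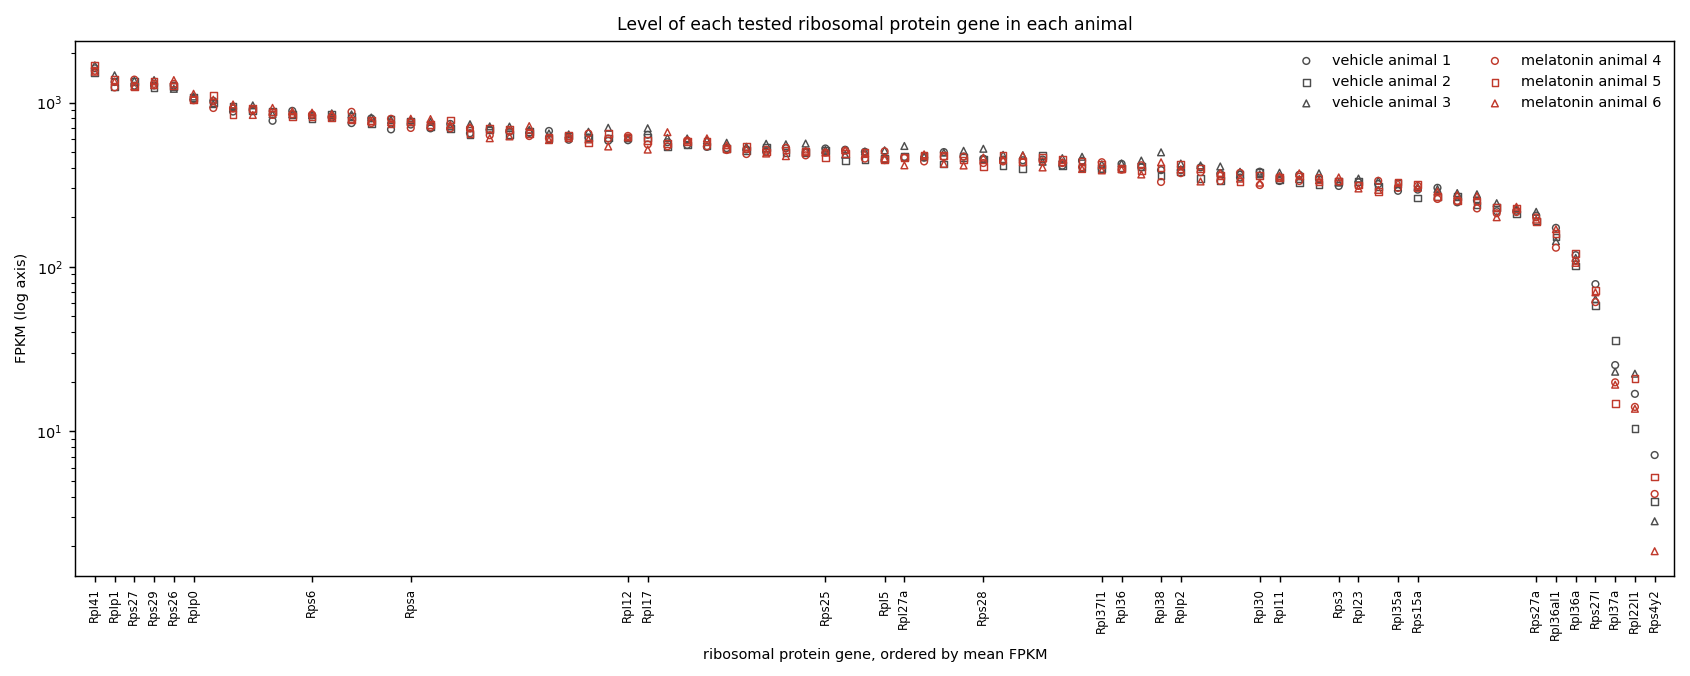
Level of each of the 80 tested ribosomal protein genes (x axis, ordered by mean, names given for the genes described) in each of the 6 animals, in FPKM on a log axis. Open grey symbols are vehicle animals and open red symbols melatonin animals. The symbols of a gene lie nearly on top of each other from Rpl41 at 1603 FPKM down to Rpl36a at 111, and the order ends with Rps27l, Rpl37a, Rpl22l1 and Rps4y2.

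The 5 highest genes were Rpl41, Rplp1, Rps27, Rps29 and Rps26. Rpl41, which encodes the shortest ribosomal protein, was listed at 1615.03, 1530.32 and 1684.38 in the vehicle animals, against 1560.49, 1690.34 and 1539.97 in the melatonin animals. Rps27, a small subunit protein with a zinc finger, was listed at 1265.94, 1338.31 and 1361.03 in the vehicle animals, against 1378.40, 1249.73 and 1252.93 in the melatonin animals. Rps29, also a zinc finger protein of the small subunit, averaged 1289 ± 72.3 and 1309 ± 39.9 (SD, n = 3), and Rps26, at the exit of the mRNA channel, 1243 ± 28.8 and 1310 ± 54.3. For each of these 4 the groups overlapped. The order of levels was almost the same in every animal: over the 75 genes without paralogues, Spearman's rho between 2 animals lay between 0.979 and 0.991 for the 15 pairs, a description across genes measured by the same libraries and divided by the same transcript lengths. Transcripts ran from 318 bases (Rps29) to 1958 (Rpl15), and the rank correlation of level with length was between -0.05 and -0.02 in the 6 animals.

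The stalk of the large subunit, which recruits elongation factors, is built from Rplp0 and pairs of Rplp1 and Rplp2. Rplp0 was listed at 1049.28, 1070.38 and 1088.22 in the vehicle animals, against 1032.77, 1046.25 and 1130.49 in the melatonin animals. Rplp1 was listed at 1332.97, 1244.41 and 1464.44 in the vehicle animals, against 1235.33, 1387.36 and 1341.25 in the melatonin animals. Rplp2, its partner in the pairs, was lower, at 387.33, 377.15 and 425.41 and at 371.62, 420.42 and 392.73. The groups overlapped for all 3, and in each group Rplp1 had a mean more than 3 times that of Rplp2, although the proteins pair. Rpsa, a small subunit protein also known as the laminin receptor precursor, was at 761 ± 24.5 after vehicle and 753 ± 48.8 after melatonin. Summed over their genes, large subunit proteins without the stalk held 4.28% ± 0.161 of the library after vehicle and 4.18% ± 0.0472 after melatonin, and small subunit proteins 3.45% ± 0.0930 and 3.43% ± 0.0603 (SD, n = 3). The ratio of the 2 sums was 1.237, 1.231 and 1.257 in vehicle animals and 1.204, 1.231 and 1.221 in melatonin animals.

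No ribosomal protein gene passed the test after melatonin. Of the 82 genes, 80 passed the filter of a mean of at least 1 FPKM over the 6 animals, and Rpl39l1 and Rps12l4 did not. With limma on log2(FPKM + 1) over 10137 features and Benjamini-Hochberg adjustment, 0 of the 80 had an adjusted p under 0.05, against 0 (0%) of all features, and the smallest adjusted p of a ribosomal protein gene was 0.972. Before adjustment, 0 were higher and 2 lower with p under 0.05, Rpl17 and Rpl37a, that is 2.5% against 3.75% of all features in either direction (1.82% higher, 1.92% lower). Their median log2 change, melatonin minus vehicle, was -0.02, the same to 2 decimals as the -0.02 of all tested features, with 28 positive and 52 negative values, against 46% and 54% over all features. This split changed with single libraries and with the scaling: without vehicle animal 3 it was 48 positive and 32 negative with a median of 0.01, without melatonin animal 4 it was 37 and 43, without vehicle animal 2 it was 20 and 60, and with median-of-ratios scaling it was 42 and 38. An exact permutation test of 3 animals against 3 has a smallest two-sided p of 0.1, so single genes were tested with limma alone.

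How large a change the data leave room for is given by the 95% intervals. The median distance from the estimate to either bound was 0.21 on the log2 scale, and 77 of 80 intervals lay wholly within 0.5 of 0, which is a rise of 41.4% or a fall of 29.3%. Wholly within 0.3 lay 63. The 3 with a bound beyond 0.5 were Rpl37a, Rpl22l1 and Rps4y2, all with group means under 30 FPKM. For Rps6, the small subunit protein phosphorylated by the S6 kinases, the log2 change was 0.03 (interval -0.16 to 0.22), with 826 ± 20.4 FPKM after vehicle and 843 ± 25.1 after melatonin. For Rpl5 and Rpl11, which bind Mdm2 when ribosome assembly fails, it was -0.003 (-0.22 to 0.22) and 0.01 (-0.18 to 0.21).

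**Figure D2:**
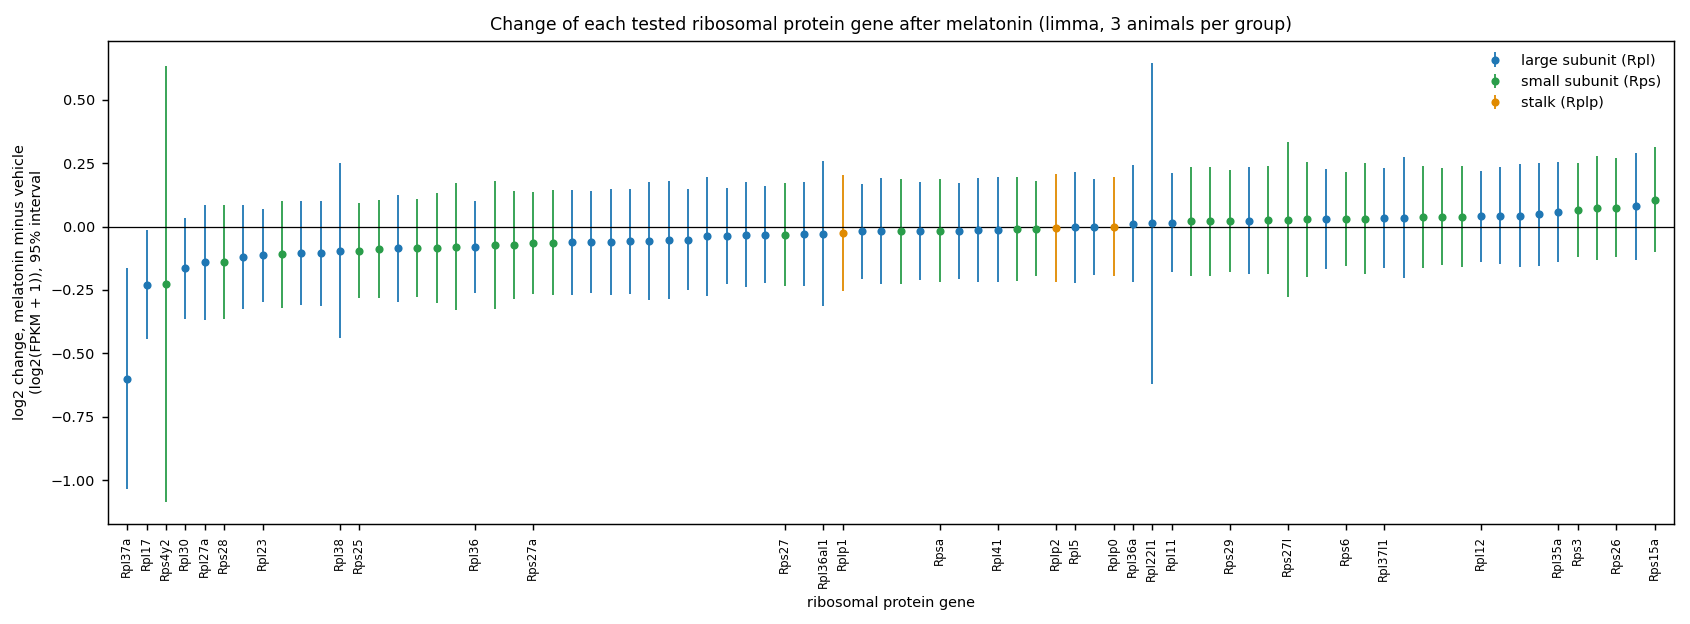
Log2 change, melatonin minus vehicle, of each of the 80 tested ribosomal protein genes, ordered by change and named where described, with its 95% interval from limma (3 animals per group). Blue marks large subunit, green small subunit and orange stalk genes. All but 2 intervals cross 0, and those of Rpl37a, Rpl22l1 and Rps4y2 are the widest.

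Rpl17 had the smallest p after Rpl37a and was the most abundant of the 7 genes with every melatonin animal below every vehicle animal. This protein lines the end of the tunnel through which the new peptide leaves the large subunit. It was listed at 636.34, 611.06 and 697.20 FPKM in the vehicle animals, against 555.94, 584.19 and 516.97 in the melatonin animals. Every melatonin animal lay below every vehicle animal (log2 change -0.23 ± 0.09 SE, limma adjusted p = 0.972). Rpl30, a large subunit protein, was listed at 379.28, 373.19 and 365.56 in the vehicle animals, against 314.53, 358.91 and 325.19 in the melatonin animals, again without overlap (log2 change -0.16 ± 0.09, limma adjusted p = 0.972). Rpl23, at the face between the subunits, was listed at 326.98, 330.09 and 344.60 in the vehicle animals, against 310.81, 314.65 and 299.83 in the melatonin animals. Its difference was small and its groups did not overlap (log2 change -0.11 ± 0.08).

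Rpl27a was listed at 466.01, 468.87 and 543.79 in the vehicle animals, against 460.25, 463.66 and 414.55 in the melatonin animals, so that the groups were separated by about 2 FPKM only. Rps25 and Rpl36 also had every melatonin animal below every vehicle animal, Rps25 at 517 ± 8.11 and 484 ± 21.6 and Rpl36 at 416 ± 14.4 and 394 ± 3.37 (SD, n = 3). Rps28 was the other gene among the 6 lower ones with the smallest p, at 477 ± 39.8 and 432 ± 28.4, and its groups overlapped. Its log2 change of -0.14 was -0.07 without vehicle animal 3, and that of Rpl27a, also -0.14, was -0.07 without vehicle animal 3 and -0.09 without melatonin animal 6. In all, 7 of the 80 genes had every melatonin animal below every vehicle animal (8.75%, against 4.33% of all features), and 1, Rpl12, had every one above (1.25%, against 4.04%). Both directions together, these were 8 of the 80 genes (10%), against 8.38% of all features. With median-of-ratios scaling the counts were 5 and 0, together 6.25% of the genes, against 9.01% of all features. Rpl12, at the base of the stalk, was listed at 589.34, 609.14 and 607.24 in the vehicle animals, against 626.18, 617.23 and 613.54 in the melatonin animals, and its log2 change was 0.04 ± 0.08.

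Among the genes with positive changes and the smallest p, 4 are described, with log2 changes of 0.11 or less. Rps15a, a small subunit protein, was at 288 ± 22.7 and 310 ± 6.43 (log2 change 0.11 ± 0.09, limma adjusted p = 0.972). It was listed at 295.00, 262.73 and 306.42 in the vehicle animals, against 310.72, 315.34 and 302.64 in the melatonin animals, and the groups overlapped. Rps26 had a log2 change of 0.08, Rps3, at the entry of the mRNA channel, 0.06, and Rpl35a 0.06. The groups overlapped for each of the 4. With single animals left out, Rps15a was at 0.04 without vehicle animal 2, Rps26 at 0.04 without melatonin animal 6, Rps3 at 0.04 without vehicle animal 1 or melatonin animal 6, and Rpl35a at 0.02 without vehicle animal 1 and 0.03 without melatonin animal 5. Rpl35a was at 0.09 without melatonin animal 4 or vehicle animal 2.

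**Figure D3:**
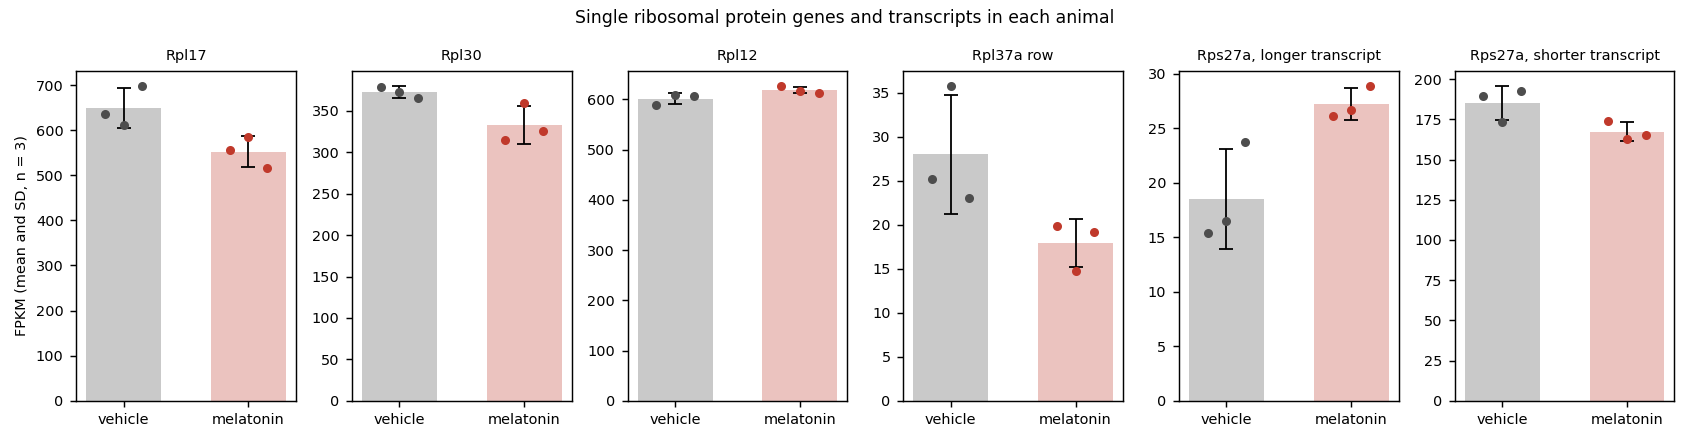
FPKM of Rpl17, Rpl30, Rpl12, the Rpl37a row and the 2 Rps27a transcripts in each animal (points), with group mean (bar, from 0) and SD (error bar, n = 3 animals), grey for vehicle and red for melatonin. The points of the groups do not overlap in any panel but the last, where 1 vehicle and 1 melatonin animal nearly coincide at 173.39 and 173.96.

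The Rpl37a row is given beside rows of near copies. The row named Rpl37a was listed at only 25.25, 35.75 and 23.01 FPKM in the vehicle animals, against 19.83, 14.81 and 19.18 in the melatonin animals, with no overlap (log2 change -0.60 ± 0.19, limma adjusted p = 0.972), and held a mean of 25.7 estimated reads per library. A second row has a RefSeq accession of the non-coding class that is matched to no symbol, and its protein hit in the authors' deposited table is L37a. This second row was listed at 790.73, 742.56 and 798.37 in the vehicle animals, against 737.33, 754.20 and 771.60 in the melatonin animals. Together with another row of the same hit, which never exceeded 4.04 FPKM, the L37a rows summed to 817.47, 782.35 and 822.88 after vehicle and to 757.16, 771.20 and 792.99 after melatonin, so the groups overlapped in the sum. The Rpl37a row held 2.80% to 4.57% of it in vehicle animals and 1.92% to 2.62% in melatonin animals. How reads were divided between these rows is not given in the sources used here, and the RefSeq annotation lists 839 pseudogenes under symbols of this family.

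An abundant row for another ribosomal protein stood outside the rule because its accession is matched to no symbol. The row whose protein hit in the authors' deposited table is S9, a small subunit protein, was listed at 224.83, 195.80 and 217.90 FPKM in the vehicle animals, against 171.94, 188.01 and 150.01 in the melatonin animals. Every melatonin animal lay below every vehicle animal (log2 change -0.33 ± 0.11, limma adjusted p = 0.972). With this and the other 4 unmatched rows added, 83 features were tested and 0 had an adjusted p under 0.05.

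Rps27a is made as a fusion of ubiquitin with a small subunit protein, and it is the only gene of the set with 2 transcript rows. The shorter, of 996 bases, was listed at 189.83, 173.39 and 192.42 FPKM in the vehicle animals, against 173.96, 163.02 and 165.00 in the melatonin animals. The longer, of 1035 bases, was listed at 15.34, 16.44 and 23.77 in the vehicle animals, against 26.09, 26.63 and 28.83 in the melatonin animals. The longer transcript thus held 7.48%, 8.66% and 11.0% of the gene's FPKM after vehicle and 13%, 14% and 14.9% after melatonin, and every melatonin animal lay above every vehicle animal. Tested without summing, its log2 change was 0.55 ± 0.17 (limma adjusted p = 0.972), so it did not pass the threshold. The sum of both was 204 ± 13.2 after vehicle and 194 ± 5.23 after melatonin (SD, n = 3). RefSeq gives Rps27a 2 starts, shown here because the transcripts may differ there, though the table does not say which start belongs to which transcript.
Rps27a, GRCr8 chr14:107488932-107488961, minus strand: ggccgcctaaagggcggttcCTTCgacccg
Rps27a, GRCr8 chr14:107488876-107488905, minus strand: ttcctttccgatccgccatcgttggtgagt
The upstream start opens with a C and a run of 4 C and T, and the downstream start with no such run.

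The paralogues, which can replace or accompany their partners in some tissues, were low in the colon with 2 exceptions. Rpl22l1 stood at 6.22% ± 2.12 of the level of Rpl22 after vehicle and 6.31% ± 1.79 after melatonin (SD, n = 3). It was listed at 16.87, 10.35 and 22.38 FPKM in the vehicle animals, against 14.05, 21.00 and 13.69 in the melatonin animals, which makes it one of the genes that varied most between animals. Rps27l, a target of p53, stood at 5.07% ± 0.995 of Rps27 after vehicle and 5.25% ± 0.722 after melatonin. Rps4y2, a copy of Rps4x, stood at 0.814% ± 0.432 and 0.645% ± 0.303 of its partner. Rpl39l1, which is best known from the testis, was listed at 1.24 in vehicle animal 2, at 1.16 in melatonin animal 4 and at 0 in the other four, and Rps12l4 at 0.38 in vehicle animal 3, at 0.37 in melatonin animal 6 and at 0 in the others. These values come from at most a few reads. The exceptions were Rpl36al1, at 141% ± 12.9 of Rpl36a after vehicle and 138% ± 20.3 after melatonin, and Rpl37l1, at 404 ± 15.2 and 413 ± 24.2 FPKM, for which RefSeq lists Rpl37 as an older symbol and for which there was no partner row among the genes used here. In each pair the groups overlapped.

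Ribosomal protein mRNAs varied little between animals. The median coefficient of variation over the 6 animals was 5.42%, against 15.8% for all tested features and 9.85% for the 356 other features with a mean of at least 200 FPKM. The related lists below were not compared in this way, so low spread is not shown to be particular to ribosomal protein genes. In 69 of the 80 genes the highest animal was less than 1.25 times the lowest. Depth was estimated from the steps of low values at 3280000 to 3600000 fragments per library, which gives the 75 genes without paralogues a median of 1200 reads per library and a median counting error of 2.89%. The observed variation lay above the counting error in 70 of the 75, with a median of 5.34%. Rpl38 varied most among those above 200 FPKM, at 387.79, 358.70 and 497.70 in the vehicle animals, against 328.34, 399.43 and 432.72 in the melatonin animals.

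**Figure D4:**
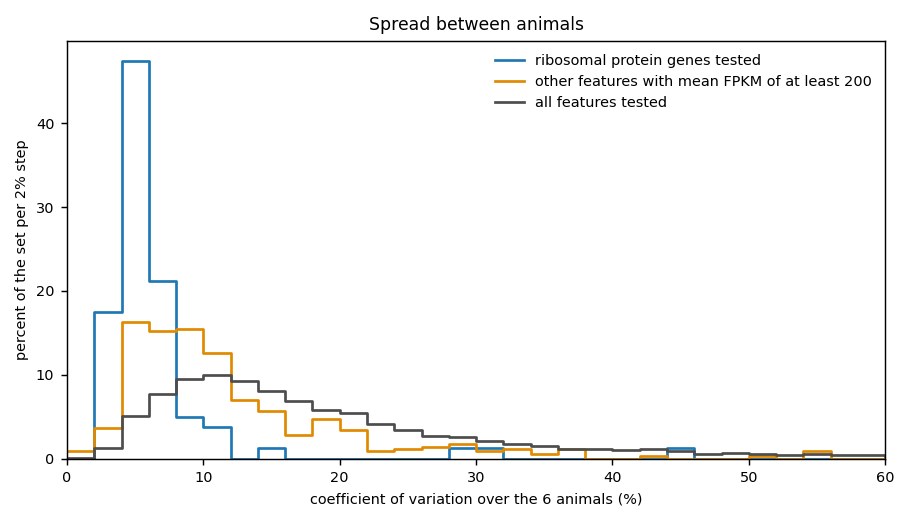
Share of each set (y axis, percent per 2% step) against the coefficient of variation over the 6 animals (x axis, percent), for the 80 tested ribosomal protein genes, the 356 other features with a mean of at least 200 FPKM and all 10137 tested features. The ribosomal protein genes, with a median of 5.42%, lie to the left of the other sets, with medians of 9.85% and 15.8%.

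One library stood above the others for much of the set. Vehicle animal 3 held the highest value of 42 of the 80 genes and the lowest of 1, while vehicle animal 2 held the highest of 2 and the lowest of 20. Over all features, vehicle animal 3 held the highest value in 15.0% and the lowest in 14.2%, and vehicle animal 2 in 19.8% and 14.5%. Melatonin animal 6 held the lowest value in 33.3% of all features, and in 18 of the 80 genes. Set against the mean of the vehicle group, the median gene lay at -0.02, -0.05 and 0.06 (log2) in vehicle animals 1, 2 and 3, and at -0.04, -0.002 and -0.01 in melatonin animals 4, 5 and 6. Large and small subunit genes had like medians, at 0.07 and 0.05 in vehicle animal 3 and at -0.04 and -0.05 in vehicle animal 2. The melatonin animals lay inside the range of the vehicle animals for both subunits. The rank correlation between transcript length and a gene's difference from its own mean was between -0.13 and 0.07 in the 6 animals (75 genes).

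Ribosomal proteins encoded under other symbols lay in the same range of levels. Fau, which carries a small subunit protein, averaged 635 ± 45.4 in the vehicle group and 589 ± 26.8 in the melatonin group, and Rack1, a scaffold on the small subunit, at 453 ± 16.6 and 463 ± 18.1 (SD, n = 3). They belong to a list of translation factors and other mRNAs with TOP tracts, of which 25 of 25 measured members were tested. None had an adjusted p under 0.05 (limma). At an unadjusted p under 0.05 the list held 3 higher genes and 0 lower ones, where 1.82% and 1.92% of all features were called. The median log2 change was 0.02, with 15 positive and 10 negative, against 46% and 54% over all features. The 2 with the smallest p were Nap1l1, a histone chaperone, at 21.2 ± 1.39 and 29.3 ± 3.92 (log2 change 0.45 ± 0.13, limma adjusted p = 0.972), and Npm1, nucleophosmin of the nucleolus, at 137 ± 3.77 and 169 ± 23.2 (log2 change 0.29 ± 0.11, limma adjusted p = 0.972).

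Genes that build ribosomes, as opposed to those that form them, had values that differed by animal. Of 35 tested genes of ribosome biogenesis and rRNA processing, 0 had an adjusted p under 0.05 (limma) and 0 an unadjusted p under 0.05 in either direction. Their median log2 change was 0.19, against -0.02 over all features and -0.02 for the ribosomal protein genes. Of the 35 biogenesis genes 31 were positive and 4 negative, against 46% and 54% over all features. Without melatonin animal 6 the median was 0.10, and without melatonin animal 4 it was 0.28. By animal, the median gene of the list lay 0.24 above the vehicle mean in melatonin animal 5, 0.31 above it in animal 6 and at 0.00 in animal 4, against 0.10, 0.02 and -0.09 in the vehicle animals. Animals 5 and 6 thus lay above all vehicle animals and animal 4 among them, and 7 of the 35 genes had every melatonin animal above every vehicle animal, as did 4.04% of all features. Fbl, the methyltransferase fibrillarin, was listed at 37.43, 30.69 and 28.68 FPKM in the vehicle animals, against 33.24, 45.35 and 49.99 in the melatonin animals (log2 change 0.39 ± 0.17, limma adjusted p = 0.972). Utp4, a factor of early small subunit assembly, was listed at 9.55, 10.42 and 9.40 and at 12.53, 12.56 and 11.70 (log2 change 0.30 ± 0.13, limma adjusted p = 0.972).

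**Figure D5:**
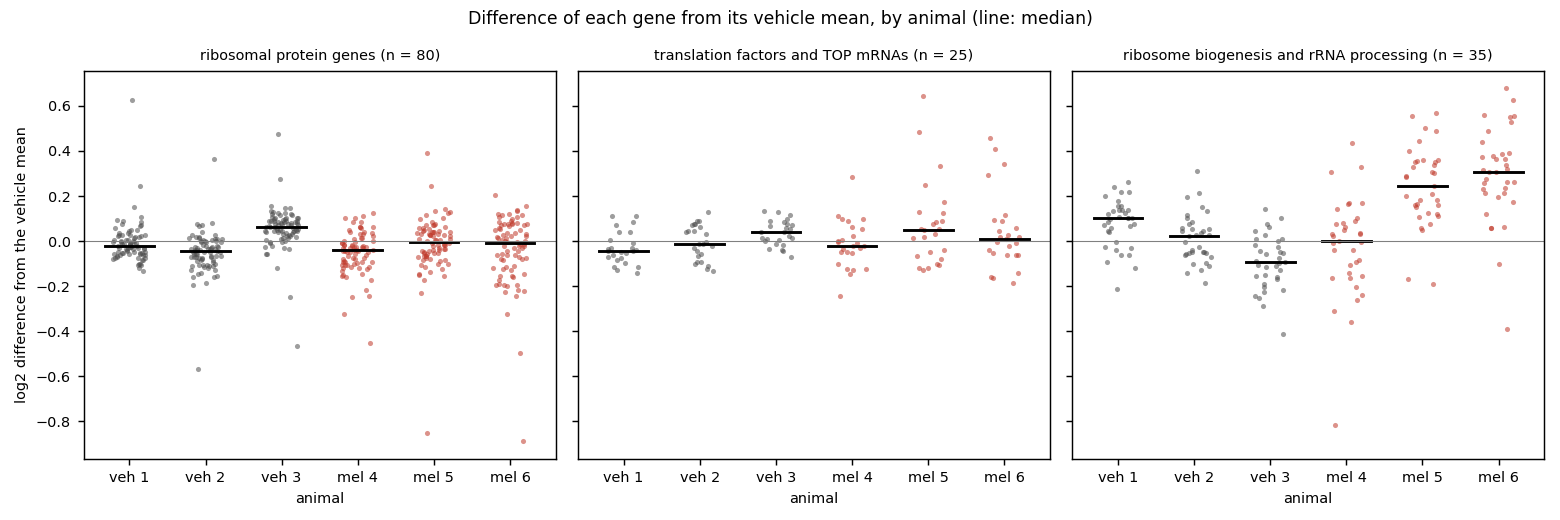
Log2 difference of each gene from its vehicle mean (y axis, on log2(FPKM + 1)) in each animal (x axis), for ribosomal protein genes (80), translation factors and TOP mRNAs (25) and ribosome biogenesis genes (35). Points are genes, grey in vehicle and red in melatonin animals, and lines are medians. The medians of the ribosomal protein genes stay between -0.05 and 0.06, and those of the biogenesis genes reach 0.24 in melatonin animal 5 and 0.31 in melatonin animal 6.

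Other lists covered the supply of rRNA and the control of translation. RNA polymerase I, which transcribes the rRNA genes, showed a median of -0.001 (log2) in 18 tested genes, 9 positive and 9 negative, with 0 past the adjusted threshold. Its 2 genes with the smallest p were Taf1b, at 0.703 ± 0.103 and 1.51 ± 0.216, and Polr1h, at 30.1 ± 5.08 and 24.6 ± 3.33. Taf1b had a vehicle mean under the filter of 1 FPKM and passed it only through the melatonin animals. The mTORC1 pathway and translational control, through which TOP mRNAs are regulated, had a median of 0.02 over 27 tested genes, 15 positive and 12 negative, and 0 past the adjusted threshold. Its 2 genes with the smallest p were Sesn3, an inhibitor of the pathway, at 5.31 ± 1.40 and 8.14 ± 1.40 (log2 change 0.55 ± 0.22, limma adjusted p = 0.972), and Rheb, its activator, listed at 59.77, 68.95 and 68.47 in the vehicle animals, against 58.00, 57.40 and 57.55 in the melatonin animals. Among snoRNA host genes 2 were tested, Gas5 at 27.6 ± 1.10 and 34.6 ± 7.26 and Snhg4 at 1.80 ± 0.875 and 1.29 ± 1.28. The nuclear-encoded respiratory chain, another set of abundant housekeeping mRNAs, had a median of -0.06 over 35 tested genes, with 0 past the adjusted threshold. Of these genes 5 were positive and 30 negative, against 46% and 54% over all features. Its 2 genes with the smallest p were Ndufs7, at 167 ± 6.81 and 136 ± 8.72, and Ndufa9, at 110 ± 9.85 and 95.3 ± 5.83.

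The makeup of the tissue was read from marker genes. In bulk tissue, fewer cells of a type and less RNA per cell cannot be told apart. Absorptive colonocyte markers (16 names for 15 genes, all measured) summed to between 12980 and 14740 FPKM in every library. Krt8 (2895 to 3592) and Krt19 (2043 to 2785) were the largest of them. Smooth muscle markers (9 of 10) summed to between 53.4 and 72.2, as the epithelial label would have it. Most of this muscle sum was Smtn, at 41.88 to 55.43, and the other tested muscle markers did not exceed 7.02. Proliferating cell markers (18 of 20), which mark dividing crypt cells, summed to 262 to 364 FPKM after vehicle and to 290 to 433 after melatonin, with a median log2 difference of 0.50 in melatonin animal 5, 0.04 in animal 4 and -0.09 in animal 6, against 0.21, -0.15 and -0.17 in the vehicle animals. The median log2 change of this list was 0.18, with 12 positive and 6 negative. The 6 negative genes were Ccnb1, Ccnb2, Aurka, Birc5, Cdc20 and Plk1, with log2 changes between -0.21 and -0.06. Before adjustment 3 of its genes were higher at p under 0.05 (1.82% of all features) and 0 lower. Mcm2, Mcm3, Mcm4 and Mcm6 had every melatonin animal above every vehicle animal (4.04% of all features). These subunits of the replicative helicase were picked out after their values were seen. For Mcm7, of the same helicase, the groups overlapped. Markers of T and NK cells (11 of 12) summed to 7.73 to 18.1 and to 11.6 to 35.4, with 0.72 in melatonin animal 5, 0.60 in animal 6 and -0.12 in animal 4, against 0.32, -0.05 and -0.31 in the vehicle animals. Over the 9 tested T and NK markers the median log2 change was 0.41, with 8 positive and 1 negative. Of these, Gzma, Gzmb, Cd8a and Ncr1 had vehicle means under 1 FPKM and passed the filter only through the melatonin animals. They were among the positive ones, so the split rests partly on the filter. No measured marker of either list was at 0 in all animals. Their part in the values of the biogenesis genes was not tested. In the remaining marker lists no gene had an adjusted p under 0.05 (limma). The median log2 change was 0.04 for crypt base and stem cells (9 tested), -0.07 for goblet cells (7) and 0.04 for fibroblasts (2). It was 0.23 for the B and plasma cell list (5), -0.05 for macrophages and dendritic cells (8) and -0.42 for red blood cells (4). In the B and plasma cell list, Cd79b and Ms4a2 also had vehicle means under 1 FPKM. They passed the filter only through the melatonin animals. Ms4a2 entered through a synonym in place of the listed Ms4a1 and is not taken as a B cell marker. Sdc1, Xbp1 and Cd74 of this list had vehicle means of 111, 206 and 99.8 FPKM. The median of this list is therefore not a reading of B and plasma cells alone.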

How the data were processed

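RNA of 6 animals was sequenced, 3 per group, each animal 1 library. Per the labels' protocols, oligo(dT) beads enriched the mRNA, cDNA synthesis used random hexamers, and no marking of strand is described. The authors deposited FPKM values per RefSeq transcript, rounded to 2 decimals; build rn6 and the tools RSEM, Bowtie2 and BWA 0.7.10-r789 appear, per the submitters' processing notes, without roles. How reads that fit several transcripts were handled, which bears on a family with many copies, is not given in the sources used here. Beside these values, the authors' deposited table holds group means, a log2 ratio, a score headed Probability (not used) and transcript lengths; their log2 ratios were recomputed within 4.31e-08.

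Transcripts were matched by accession to symbols of RefSeq GRCr8 (12883 of 13647; names and promoter windows only) and summed per gene, giving 13104 features. Features with a mean of at least 1 FPKM entered limma (version 3.58.1, under R 4.3.3; two-sided moderated test, its prior variance following the mean) as log2(FPKM + 1), Benjamini-Hochberg over 10137 features, threshold 0.05. Fold changes on this scale understate those of low genes. The procedure was tested on simulated data. Depth was estimated from low values in short transcripts, where 90.8% to 93.3% lay within 0.1 of a whole read after taking 41 bases off each length. Counting errors cover counting only.

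The members and lists were chosen with earlier results of these data known. Genes were named by rule: members past the threshold, the 6 with the smallest p per direction, the 5 highest and 5 lowest, the stalk genes, Rpsa, paralogues with partners, and 2 per related list, of which some are not reported here; Rps6, Rpl5, Rpl11, Rpl38 and those whose groups do not overlap were added after their values were seen. Alternatives were another pseudocount, 2 filters, 3 scalings, sample quality weights, unsummed transcripts, paralogues left out, unmatched rows added, and each animal left out; the added unmatched rows were chosen after seeing the data.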

Additional observations from a re-analysis of the deposited data

How the results depend on the processing

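Under all 16 alternatives, 0 ribosomal protein genes passed an adjusted p of 0.05 (limma), as with the settings of the report. Over all features, 1 of 13104 passed it without a filter and 4 of 10125 without melatonin animal 4. The smallest adjusted p of a ribosomal protein gene was 0.343 with sample quality weights and 0.362 without melatonin animal 4 (limma). The median log2 change of the ribosomal protein genes stayed between -0.05 and 0.01. It turned positive without vehicle animal 3 (0.01) and with median-of-ratios scaling (0.001). The difference in their share of summed FPKM, melatonin minus vehicle, was -0.125 percentage points and lay between -0.218 and 0.0359 when 1 animal was left out. The number of genes whose groups do not overlap was 8 of 80 (8.38% of all features) and 5 with median-of-ratios scaling (9.01% of all features). It lay between 12 and 20 with 1 animal left out, where fewer animals make separation easier. It was 20 (25%) without melatonin animal 4, where 29.5% of all features did not overlap, and 18 (22.5%) without vehicle animal 2, against 16.6%. It was 13 without melatonin animal 6 or vehicle animal 3, against 15.5% and 15.0% of all features, and 12 (15%) without melatonin animal 5 or vehicle animal 1, against 14.9% and 20.3%. The difference in the share of the longer Rps27a transcript was 4.94 percentage points and lay between 4.16 and 5.92 with 1 animal left out. The median of the biogenesis genes, 0.19, lay between 0.10 (without melatonin animal 6) and 0.28 (without melatonin animal 4). Of 22 named genes followed under 13 of the alternatives, 0 of 283 values passed the threshold and 2 turned direction. Snhg4 (-0.43) was 0.0644 with sample quality weights, turned positive without melatonin animal 6 and lay between -0.835 and 0.0807 with 1 animal left out. The causes were not tested. No paired analysis was possible because the vehicle and melatonin animals share no replicate numbers. Depth limits the lowest paralogues, Rpl37a with 25.7 estimated reads and Taf1b, and leaves the abundant members limited by 3 animals per group.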
